A study of Mus musculus with 68 samples.

Results

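Keratin-associated proteins are the matrix proteins of hair: they lie between the hair keratin filaments and are cross-linked to them while the shaft hardens. The family is divided by amino acid content into high-sulfur, ultra-high-sulfur and glycine-tyrosine proteins, and its genes stand in clusters of short genes that are switched on in the matrix, cortex and cuticle of the growing hair. The members were all genes on the array whose probeset carried a single symbol starting with Krtap, each represented by the probeset with the highest mean over 68 arrays. This gave 38 genes of 18193 with a single-symbol probeset, from 43 probesets. Another 6 probesets listed several symbols and were not counted as members. All 38 symbols matched RefSeq. Of the members 20 lay on chromosome 16, 10 on chromosome 11, 5 on chromosome 7, 2 on chromosome 10 and 1 on chromosome 1. There were 13 glycine-tyrosine genes (subfamilies 6, 7, 8, 19, 21 and 22), 10 high-sulfur genes (1, 3, 10, 11, 12, 13, 14, 15 and 26) and 12 ultra-high-sulfur genes (4, 5, 9 and 17). Krtap16-3, Krtap28-13 and Krtap31-1 were left outside these groups. The grouping follows general knowledge of the subfamilies and was not checked on protein sequences, and each value by group rests on it.

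The samples were 68 benign skin papillomas of 37 FVBBX mice, a backcross of [SPRET/Ei X FVB/N] animals to FVB/N, in which each mouse is genetically different. All mice received DMBA, a mutagen, on the dorsal skin at 8 to 12 weeks of age and then TPA, a tumor promoter, 2 times a week for 20 weeks, so that there was no untreated group. A pair of papillomas was profiled in 31 mice and a single one in 6. Mice were classed by papilloma number at 20 weeks as susceptible (9 to 35 papillomas, 12 mice), intermediate (2 to 7, 19 mice) or resistant (0 to 1, 6 mice). There were 17 agouti and 20 white mice, and 21 labelled female and 16 labelled male. Days alive, recorded for 31 mice, ran from 179 to 388 with a median of 278.

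Values are log2 signals, and the median of each array lay between 5.18 and 5.28. Keratinocyte markers were among the strongest signals, with mouse means of 12.8 to 14.3 for Krt5 and 14.0 to 14.8 for Krt14. In 6 mice (8 arrays) the level of Xist or of a Y-linked gene went against the sex label, and these were 1 susceptible, 1 resistant and 4 intermediate mice. The ratio of 3′ to 5′ Actb signal, a sign of RNA integrity, differed between the papillomas of a mouse by over 1 log2 unit in 2 of the 31 pairs (mice 2 and 37). Over the 68 papillomas this ratio had a correlation with the mean of the tested members of r = 0.08 (Spearman 0.21). Papillomas of the same mouse are not independent, so that the mouse mean was the unit of each comparison.

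The start-site sequences of the members are shown first, because 21 of the 36 members with a RefSeq promoter held the letters TATAAA on the gene's own strand, beginning 20 to 40 bases before the start. This was 58.3% of the members, against 2.41% of 27025 genes. By group, 5 of 12 glycine-tyrosine, 4 of 9 high-sulfur and 9 of 12 ultra-high-sulfur genes held it there. Sequences are the 80 bases before the annotated start, 5′ to 3′ on the gene's strand, from RefSeq (GRCm38.p6), with TATAAA in capitals. They cover Krtap8-1 and Krtap22-2, which are among the 3 members most often raised, the chromosome 11 genes Krtap4-1 and Krtap9-3, the chromosome 7 gene Krtap5-1, and Krtap15, which held no TATAAA in this window.
Krtap8-1: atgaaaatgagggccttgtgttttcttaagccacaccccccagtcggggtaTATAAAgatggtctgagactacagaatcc
Krtap22-2: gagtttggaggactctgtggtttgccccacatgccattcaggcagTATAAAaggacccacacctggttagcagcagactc
Krtap4-1: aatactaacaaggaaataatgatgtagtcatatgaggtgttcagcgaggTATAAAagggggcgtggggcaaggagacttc
Krtap9-3: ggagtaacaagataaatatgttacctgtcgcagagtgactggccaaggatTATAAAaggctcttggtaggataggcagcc
Krtap5-1: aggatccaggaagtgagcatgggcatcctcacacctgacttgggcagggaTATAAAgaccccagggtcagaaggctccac
Krtap15: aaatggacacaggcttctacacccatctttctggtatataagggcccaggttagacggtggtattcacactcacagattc

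These windows lie at chr16:89487953-89488032 (minus strand) for Krtap8-1, chr16:89010760-89010839 (minus) for Krtap22-2 and chr11:99628240-99628319 (minus) for Krtap4-1. Those of the other genes are chr11:99598107-99598186 (minus) for Krtap9-3, chr7:142297135-142297214 (minus) for Krtap5-1 and chr16:88828929-88829008 (plus) for Krtap15. TATAAA began 29 bases before the start in Krtap8-1, 35 in Krtap22-2, 31 in Krtap4-1, 30 in Krtap9-3 and 30 in Krtap5-1. With both strands and all 250 bases before the start searched, TATAAA was found in 28 of 36 members (77.8%) and in 14.3% of all genes. The letters CTTTGAA, a Lef1-type string, were found on either strand in 6 of 36 members (16.7%) and in 5.19% of all genes, and 4 of the 6 were high-sulfur genes. TTTATNG, a Hox-type string that can overlap the reverse strand of TATAAA, was found in 5 of 36 members (13.9%) and in 11.3% of all genes. A match describes letters only and does not show that a factor binds.

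The members were low in many papillomas and very high in some. Of the 38 members 30 exceeded the median signal of the same array on 11 or more of the 68 arrays and so entered the tests, 7 did so in at least 34 arrays, and Krtap3-1, Krtap10-4 and Krtap12-1 did so in all 68. The members outside the tests were Krtap13, Krtap19-1, Krtap19-4, Krtap31-1, Krtap5-2, Krtap5-3, Krtap5-4 and Krtap5-5. A probe's brightness depends on its sequence, so a difference in signal between members is not a difference in RNA amount, and each was read against its own lowest values. The distance between the lowest and the highest mouse mean had a median of 4.74 log2 units over the 38 members. It exceeded 4 log2 units in 23 of them. In bulk tissue fewer hair-forming cells and less RNA per cell cannot be told apart.

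Krtap8-1, a glycine-tyrosine protein gene, had the largest spread. Its mouse means ran from 3.72 through a median of 6.78 to 11.95, with an SD of 2.61 (n = 37). Krtap15, a high-sulfur gene, followed with a mean of 6.26 ± 2.26 (SD, n = 37) and values from 3.92 to 11.40. Krtap6-5 came next at 5.96 ± 2.18, from 3.54 to 10.48. Krtap22-2 lay at 6.37 ± 2.11 and Krtap16-3, whose probeset may bind several transcripts, at 4.74 ± 2.04. In each of these 5 genes the upper mice stood far above a group of mice near the floor, and the highest mouse was mouse 5.

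At the other end Krtap19-1 had a mean of 5.01 and an SD of 0.20, Krtap5-3 one of 3.87 and an SD of 0.28, and Krtap12-1 one of 6.98 and an SD of 0.29. For Krtap19-1 and Krtap12-1 the spread differed between probesets of the gene, and Krtap5-3 had a single probeset. The second probeset of Krtap19-1 was dimmer (mean 3.80) but had an SD of 1.06 and a correlation of 0.61 with the first. That of Krtap12-1 had an SD of 0.83 against 0.29, with r = 0.89. For Krtap6-3 the dimmer probeset hardly moved, with an SD of 0.10 against 0.98 and r = 0.24. The pairs of probesets of Krtap16-3 and Krtap5-1 ran together (r = 0.98 and 0.97). The order of single genes by spread is therefore an order of probesets.

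By group, the median SD over mice was 1.41 for the 13 glycine-tyrosine genes (0.20 to 2.61), 1.22 for the 12 ultra-high-sulfur genes (0.28 to 1.82) and 1.02 for the 10 high-sulfur genes (0.29 to 2.26). The ranges overlapped almost wholly. Within the ultra-high-sulfur group the chromosome 11 genes and the chromosome 7 genes differed. The 5 Krtap4 genes had a median SD of 1.53 (1.17 to 1.82) and Krtap17-1 one of 1.26, and Krtap9-3 ran from 2.84 to 8.30 over the mice. The 5 Krtap5 genes had a median of 0.59 (0.28 to 0.96), with no overlap with Krtap4. All 5 Krtap4 genes entered the tests, but of the Krtap5 genes only Krtap5-1 did. Krtap5-2, Krtap5-3, Krtap5-4 and Krtap5-5 exceeded the array median in 10, 2, 8 and 3 arrays. The part of this low signal in the contrast was not tested. Among glycine-tyrosine genes the 6 Krtap19 genes had a median SD of 1.41 (0.20 to 1.76) and the 3 Krtap6 genes one of 1.27 (0.98 to 2.18). The 2 Krtap13 genes had an SD of 1.25 for Krtap13-1 and of 0.30 for Krtap13.

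Other subfamilies were represented by 1 gene. In the high-sulfur group, Krtap1-5 ran from 3.79 to 9.44 (mean 5.46 ± 1.73), Krtap11-1 from 3.67 to 9.62 (5.48 ± 1.88) and Krtap14 from 3.42 to 9.53 (5.12 ± 1.78). Krtap26-1 ran from 4.17 to 7.26 (4.96 ± 0.79), Krtap3-1 from 6.31 to 9.27 (7.03 ± 0.69) and Krtap10-4 from 5.51 to 8.00 (5.98 ± 0.55). Here Krtap3-1 and Krtap10-4 never fell below the array median, and their medians, 6.77 and 5.81, lay close to their own lowest values. Among glycine-tyrosine genes Krtap7-1 ran from 3.65 to 9.22 (5.17 ± 1.60), Krtap21-1 from 4.95 to 9.03 (6.12 ± 1.08) and Krtap19-9b from 4.05 to 10.31 (6.06 ± 1.67). In the ultra-high-sulfur group Krtap4-6 ran from 3.93 to 9.93 (5.66 ± 1.74). Krtap28-13 ran from 3.57 to 7.40 (4.39 ± 0.91) and Krtap31-1 from 3.69 to 6.35 (4.14 ± 0.52), where 3 of 68 arrays were above the median.

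**Figure D1:**
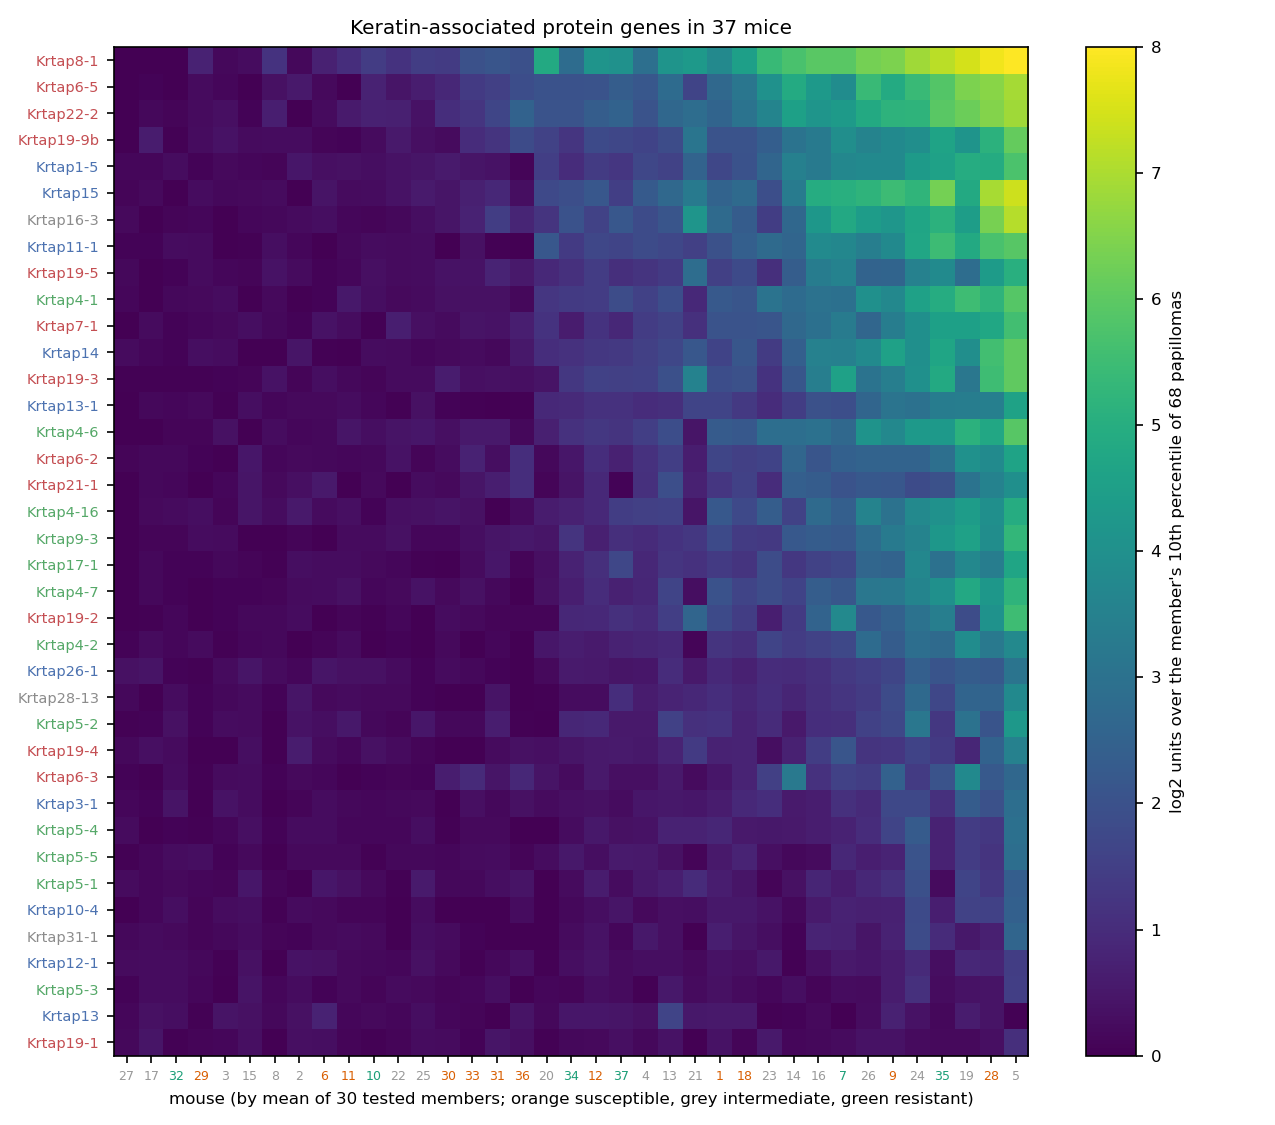
Heat map of 38 members (rows, from the most to the least often raised) in 37 mice (columns, by the mean of the 30 tested members), in log2 units over the member's own 10th percentile of 68 papillomas. Row names are red for glycine-tyrosine, blue for high-sulfur, green for ultra-high-sulfur and grey for other genes. Mice at the left are dark in nearly all rows. Mouse 5 at the right is bright in rows of wide range, such as Krtap8-1. It is much darker in rows of narrow range, such as Krtap19-1, Krtap12-1 and Krtap5-3, and in Krtap13.

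The members rose in the same mice. Over 37 mice the correlation of a tested member with the mean of the other tested members, each standardized, had a median of 0.97 (0.80 to 0.99), and exceeded 0.9 in 26 of 30. The median Spearman correlation was 0.92, and the median Pearson correlation was 0.96 without the 2 mice farthest from the median. The median r of all 21581 tested probesets with the members' mean was 0.01. Krtap7-1 (0.99), Krtap9-3 (0.99), Krtap13-1 (0.98), Krtap4-1 (0.98) and Krtap1-5 (0.98) lay closest to it, although they belong to different groups and chromosomes. Among tested members Krtap12-1 (0.80), Krtap5-1 (0.82) and Krtap6-3 (0.83) lay farthest. Of the genes that were not tested, Krtap19-1 reached 0.48 and Krtap13 0.07. These values depend on the probeset. The second probesets of Krtap12-1, Krtap19-1 and Krtap5-1 had r = 0.93, 0.86 and 0.86 with the members' mean, and that of Krtap6-3 had 0.01. Krtap13 stood highest in mouse 13 (5.31) and was at 3.69 in mouse 5, where nearly all other members peaked.

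The mean of the tested members ran from 4.05 in mouse 27 to 8.99 in mouse 5, and the next mice were mouse 28 (8.21), mouse 19 (7.91), mouse 35 (7.67) and mouse 24 (7.52). These 5 comprised 1 susceptible, 3 intermediate and 1 resistant mouse. A single papilloma was profiled of mice 19 and 35. Papillomas with high values came from all 7 start cohorts, with the highest value per cohort between 6.96 and 9.65.

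To describe the order of appearance, a member was counted as raised in a papilloma where its value was over 1 log2 unit above the 10th percentile of its own 68 values. Krtap8-1 was raised in 45 papillomas, Krtap6-5 in 39, Krtap22-2 in 38 and Krtap19-9b in 33. These 4 are all glycine-tyrosine genes on chromosome 16. Krtap1-5 and Krtap15, both high-sulfur, followed with 32 each, Krtap16-3 with 31 and Krtap11-1 with 30. Raised in fewest, by the chosen probeset, were Krtap19-1 (1 papilloma), Krtap13 (2), Krtap12-1 (3) and Krtap5-3 (3). The second probesets of Krtap19-1 and Krtap12-1 ran from 2.88 to 8.12 and from 4.24 to 7.87 over the mice.

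**Figure D2:**
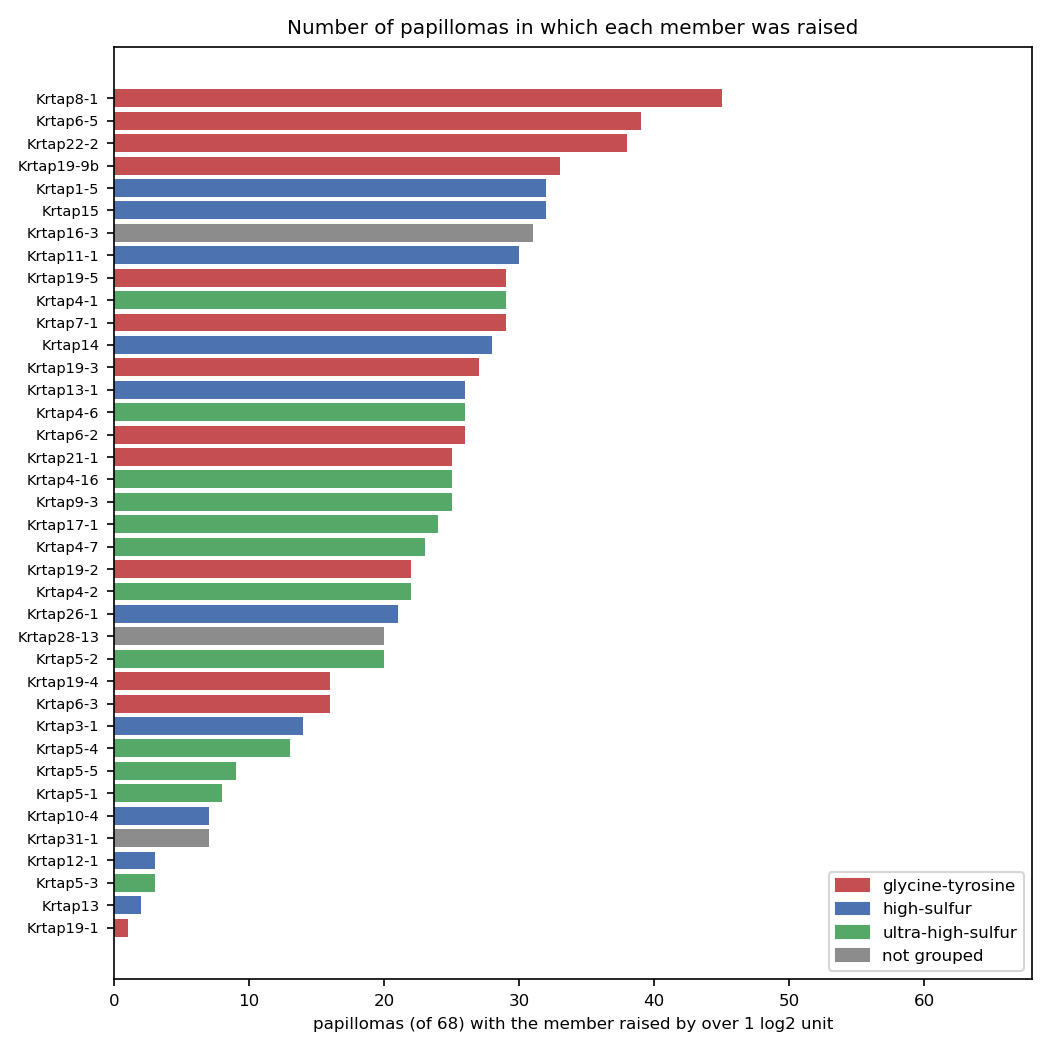
Bars give the number of papillomas, of 68, in which each member was raised by over 1 log2 unit above its own 10th percentile, colored by protein group. Krtap8-1 leads with 45, and the 5 Krtap5 genes lie in the lower part with 3 to 20.

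By group the median number of papillomas with a member raised was 27 for glycine-tyrosine, 23.5 for high-sulfur and 22.5 for ultra-high-sulfur genes. The 13 members raised most often comprised 7 glycine-tyrosine, 4 high-sulfur and 1 ultra-high-sulfur gene and Krtap16-3. The ultra-high-sulfur gene was Krtap4-1, with 29. The 5 Krtap4 genes were raised in 22 to 29 papillomas and the 5 Krtap5 genes, mostly of low signal, in 3 to 20, with medians of 25 and 9. The count moved with the range of the probeset (Spearman 0.95 over 38 members) and with its highest value (0.88). To set this aside in part, a member was also counted as raised above 1 part in 5 of its own range, from the 10th percentile to the highest value. Krtap8-1 stayed first, with 41 papillomas. The medians were then 26, 24 and 22.5 for the 3 groups, in the same order, and 19 for Krtap5. At 1 part in 3 of the range they were 19, 17 and 17.5, with 8 for Krtap5 and 32 for Krtap8-1. Both counts still moved with the range (Spearman 0.69 at 1 part in 5 and 0.92 at 1 part in 3), so neither is free of it. A rise over the array median gave another order, in which Krtap8-1 was at rank 6, as it counts bright probesets in all papillomas. The medians there were 22 for glycine-tyrosine, 29 for high-sulfur and 17 for ultra-high-sulfur genes. At a rise of 2 log2 units they were 19, 11.5 and 14, and at 0.5 they were 33, 31 and 29. The order of the groups thus depended on the count.

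Papillomas fell along a gradient in the number of members raised. None was raised in 22 papillomas, 1 to 9 in 17, 10 to 19 in 7, 20 to 29 in 10 and 30 or more in 12, up to 37. Where exactly 1 member was raised (7 papillomas), it was Krtap8-1 in 6. In the 10 papillomas with 2 to 9 members raised, Krtap8-1 was among them in all 10. Over the 17 papillomas with 1 to 9 raised, Krtap8-1 was raised in 16, Krtap6-5 in 10, Krtap22-2 in 9, Krtap19-9b in 4, and Krtap1-5 and Krtap15 in 3 each. Of ultra-high-sulfur genes only Krtap4-1 was raised in any of these 17, in 1. The papillomas were grouped here by the same calls that rank the members. As members rise together, a fixed step of 1 log2 unit is passed first by a probeset of wide range, and Krtap8-1 had the widest. These counts are therefore no separate support for an order.

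The patterns were largely nested. Among 547 pairs of members with unequal counts, of which the later was raised in at least 5 papillomas, the share of papillomas with the later member that also had the earlier one was 100% in 401 pairs and at least 90% in 505. Krtap8-1 was raised in at least 97.4% of the papillomas of each later member in these pairs. The lowest share was 57.1%, for Krtap31-1 with Krtap5-1, where 4 of 7 papillomas overlapped. Nesting of this kind follows largely from members that rise together, differ in range and are read at a fixed step. These shares describe 1 point per papilloma and do not follow a tumor in time.

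The hair keratins ran beside the members. Genes without a Krtap symbol were ranked by Pearson correlation with the members' mean in the 37 mice. Krt86 (0.99, Spearman 0.92) and Krt34 (0.99, Spearman 0.96), keratins of the hair shaft, were most alike. Next were Krt31 (0.98), Gm11567 (0.98), Gm11559 (0.97), Gprc5d (0.97), Krt33b (0.97), Gm10229 (0.97), Krt33a (0.97) and Krt26 (0.97). Krt26 is a keratin of the inner root sheath and Gprc5d an orphan receptor of hard-keratinizing cells. In the RefSeq order Gm10229 is the direct neighbour of Krtap22-2, and 2 and 4 genes stand between Krtap4-16 and Gm11559 and Gm11567. A probeset with several symbols lists Gm11559 and Gm11567 together with Krtap9-1. Whether these gene models belong to the family was not checked, so they may not be separate from it. Of all tested probesets 51 (0.236%) correlated above 0.9, and 28 of these were Krtap probesets. The mean is made of the tested members, so the number of Krtap probesets follows from its making and is no separate result.

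By the same count as for the members, Krt25 was raised in 39 papillomas, Gm10229 in 39, Krt33a in 36, Krt27 in 34 and Krt71 in 32. Krt86 was raised in 27, Krt31 in 26, Krt33b in 22 and Gprc5d in 18. In the 17 papillomas with 1 to 9 members raised, Gata3 was raised in 13, Tchh in 12, and Krt25 and Gm10229 in 10 each. Krt33a was raised in 7 of them and Krt27 in 5, while Krt86, Krt34, Krt33b and Gprc5d were raised in none. Where no member was raised (22 papillomas), Tchh, a protein of the inner root sheath and medulla, was raised in 14, Trps1 in 9 and Gata3 in 8. Krt84 was raised there in 2, Krt28 and Krt32 in 1 each, and Krt25, Krt27, Krt71, Krt86 and Krt31 in none. Tchh, Gata3 and Trps1 were raised in 55, 43 and 22 of all papillomas. Over mice, Gata3 and Trps1 hardly followed the members' mean (r = 0.14 and 0.16). These counts rest on the range of each probeset too.

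Other hair genes were less alike. The mean of the 11 tested hair shaft keratins had r = 0.99 with the members' mean and that of the 10 tested inner root sheath genes 0.95, with 8 and 7 genes above 0.9. Of 20 tested hair matrix regulators only Gprc5d exceeded 0.9, the median being 0.22. Hoxc13, a regulator of hair keratin genes, reached 0.79 (Spearman 0.66) and S100a3, a calcium-binding protein of the hair cuticle, 0.78. Msx2 reached 0.57, Shh 0.50, Foxn1 0.25 and Lef1 0.19. The stem cell gene Lgr5 reached 0.50 and Cd34 0.01. List means of other cell types had r = 0.51 (companion layer, 2 genes), 0.48 (sebaceous gland, 8), 0.43 (follicle stem cell, 8), 0.38 (melanocyte, 8), 0.38 (fibroblast, 7) and 0.37 (dermal papilla, 8). They were 0.34 for interfollicular epidermis (15), 0.31 for striated muscle (17), 0.14 for mitosis (14), 0.12 for endothelium (6) and -0.04 for leukocytes (8). The mean over 17 striated muscle genes ran from 4.67 to 9.22 in the mice, and the part of other tissue in the members' level was not tested.

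Papillomas of the same mouse resembled each other, and still differed widely. The intraclass correlation, the share of the variance that lies between mice, was taken over 31 pairs and tested with an F statistic (30 and 31 degrees of freedom). All 30 tested members passed at an adjusted p below the 0.05 threshold, against 71.0% of all tested probesets. As the members rose in the same mice, these 30 results are not independent, and the 2 shares cannot be compared as counts of separate genes. The median was 0.54 for the members and 0.44 for all tested probesets. The highest were Krtap8-1 (0.65, 95% interval 0.40 to 0.81, adjusted p = 1.8e-04), Krtap21-1 (0.64, 0.37 to 0.81) and Krtap22-2 (0.63, 0.36 to 0.80). The lowest among all members were Krtap13 (0.36, 0.01 to 0.63), Krtap5-3 (0.39, 0.05 to 0.65) and Krtap26-1 (0.42, 0.09 to 0.67). The intervals of the highest and the lowest overlap, and each interval given here holds the median of all tested probesets.

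**Figure D3:**
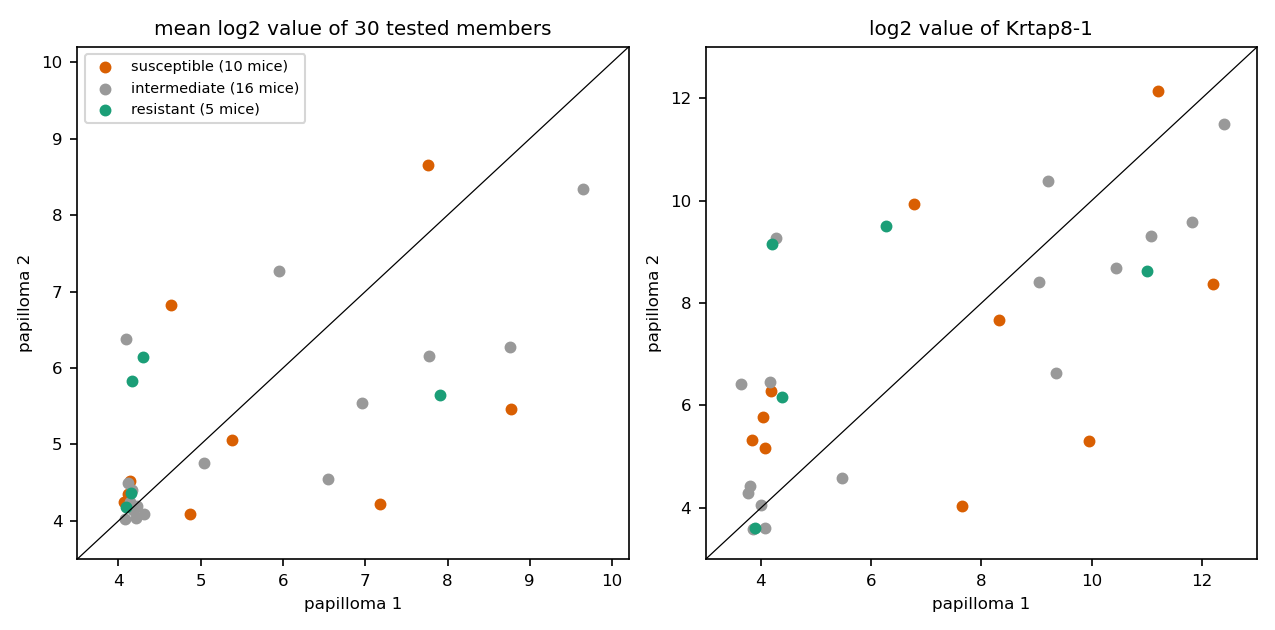
Each point is a mouse with 2 profiled papillomas, with papilloma 1 on the x axis and papilloma 2 on the y axis, for the mean log2 value of the 30 tested members (left) and for Krtap8-1 (right). The line marks equal values, and 7 of the 31 mice have means over 2 log2 units apart.

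With 10 or more members raised taken as the line, 9 of 31 mice had both papillomas above it, 15 neither, and 7 only one. In susceptible mice these numbers were 3, 5 and 2, in intermediate mice 5, 8 and 3, and in resistant mice 1, 2 and 2. The means of the tested members differed between papillomas of a mouse by a median of 0.38 log2 units, by over 1 in 13 pairs and by over 2 in 7. The widest gap was in mouse 9, with 8.78 and 5.46. In mouse 1 the means were 7.18 and 4.22, with 30 members raised in papilloma 1 and 1 in papilloma 2. Mouse 4 had 0 and 26 raised. Mouse 28 was high in both (7.76 and 8.66), as was mouse 5 (9.65 and 8.34). In mouse 37 papilloma 1 had 1 member raised at an Actb ratio of -0.27 and papilloma 2 had 25 at 1.71, and the part of RNA quality in this gap was not tested.

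Susceptibility class was then compared over 12 susceptible and 6 resistant mice. Agouti coat was found in 4 of the susceptible and 5 of the resistant mice. Coat was not a covariate here, so class and coat cannot be fully told apart. None of the 30 tested members was called by limma with Benjamini-Hochberg adjustment, against 11 of 21581 tested probesets (0.0510%). None reached an unadjusted p below 0.05, as 9.52% of all tested probesets did. The difference, susceptible minus resistant, was below 0 in 25 of 30, with a median of -0.33 log2 units and a median standard error of 0.64. The median over all tested probesets was 0.01. This lean rested on single mice. Without resistant mouse 35, one of the mice with a doubtful sex label and a single papilloma, the median was 0.12 and 6 of 30 differences were below 0. Within start cohorts that held both classes, the median difference was -0.97 (2 against 2 mice), 1.35 (3 against 1) and -0.59 (1 against 1).

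Krtap8-1 had mouse means of 4.58, 5.90 and 11.67 (lowest, median, highest) in susceptible mice, 3.72, 8.00 and 11.95 in intermediate mice and 3.75, 7.28 and 11.03 in resistant mice. The classes overlapped over nearly their whole range. Its difference was -0.50 with a 95% interval of -2.87 to 1.87 (adjusted p = 0.945 by limma, exact permutation p = 0.685, two-sided). The interval leaves room for a difference of several fold in either direction.

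The smallest p among tested members belonged to Krtap5-1, an ultra-high-sulfur gene whose probeset may bind several transcripts, as may that of Krtap11-1. Its mouse means were 5.48, 5.78 and 6.66 in susceptible mice (lowest, median, highest) against 5.54, 5.58 and 5.94 in resistant mice. The difference was 0.22 (95% interval -0.10 to 0.54, adjusted p = 0.690 by limma, exact permutation p = 0.175). Krtap19-2 differed by -0.59 (-1.94 to 0.76, exact permutation p = 0.402) and Krtap11-1 by -0.75 (-2.61 to 1.10, exact permutation p = 0.461). Krtap19-3 differed by -0.70 (exact permutation p = 0.447) and Krtap19-5 by -0.47 (exact permutation p = 0.504). In the hair keratin lists 0 of 11 hair shaft and 0 of 10 inner root sheath genes were called, with median differences of -0.26 and -0.47. The largest in size were those of Krt33a (-0.92), Krt34 (-0.45), Krt31 (-0.44) and Krt86 (-0.40) among shaft keratins, and of Gata3 (0.81), Tchh (-0.68), Krt27 (-0.63) and Krt25 (-0.61) in the inner root sheath list.

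**Figure D4:**
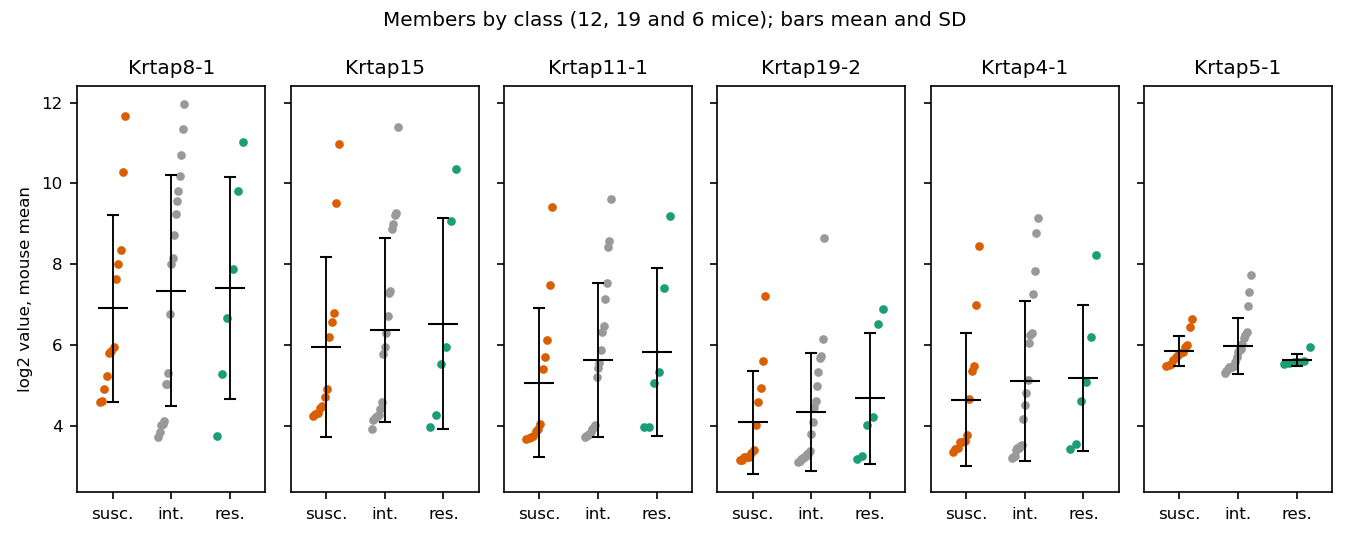
Mouse means on the log2 scale for 6 members in susceptible (orange, 12 mice), intermediate (grey, 19) and resistant (green, 6) mice, with the mean and SD as bars. For each gene the points of the 3 classes overlap, and Krtap5-1 spans the smallest range.

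No list of hair matrix regulators, stem cell, dermal papilla, sebaceous, melanocyte, muscle, fibroblast, endothelial, leukocyte, companion layer or mitosis genes held a called gene in this comparison. Of the 15 interfollicular epidermis genes 1 was called, Lce1m, a late envelope gene, which was higher in susceptible mice by 1.71 (adjusted p = 0.012 by limma). The median difference of that list was 1.48. Its list mean had r = 0.34 with the members' mean.

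Coat color gave no call among the members. None of 30 was called in agouti against white mice with sex as covariate, against 0.0741% of all tested probesets (16), and none had an unadjusted p below 0.05 (7.87% of all did). The median difference was -0.08, with 11 members higher and 19 lower in agouti mice. Class, which was tied to coat, was not a covariate. Krtap8-1 had means of 7.57 ± 2.35 (SD, n = 17) in agouti and 6.91 ± 2.83 (n = 20) in white mice. Without the mice of doubtful sex label all 30 lay lower in agouti mice, with a median of -0.38 and no call.

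Between the sexes, none of 30 members was called with coat as covariate, against 0.0649% of all tested probesets (14), and none had an unadjusted p below 0.05 (15.9% of all did). All 30 estimates lay below 0, with a median of -0.49 log2 units in females. The 30 estimates are not independent, as the members rose in the same mice. The mice of doubtful sex label were kept in this fit. Without them the median was -0.49, again with all 30 below 0 and no call. Krtap8-1 had means of 6.65 ± 2.70 (SD, n = 21) in females and 7.95 ± 2.36 (n = 16) in males, a difference of -1.26 with a standard error of 0.82 (adjusted p = 0.433 by limma). With the first papilloma of each mouse alone the median was -1.10 and none was called. In that setting 15 of 30 members had an unadjusted p below 0.05 by limma, and the share of all tested probesets was not counted. These 15 are not independent either, and each other alternative had 0 or 1 such member.

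Days alive gave no call either, at 0 of 30 members and 0 of all tested probesets (0%), with 1190 probesets and no member at an unadjusted p below 0.05. All 30 slopes were above 0, with a median of 0.63 log2 units per 100 days (31 mice). Krtap3-1 had the smallest p, at a slope of 0.38 with a standard error of 0.25 (adjusted p = 0.918 by limma). Without the mice of doubtful sex label the median slope was 0.28.

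Once the shared rise was taken out, subfamilies showed patterns of their own. For each tested member a cubic curve on the standardized mean of all tested members was subtracted over the 68 papillomas, and the deviations were correlated. Within subfamilies (19 pairs) the median correlation was 0.52, from 0.34 to 0.88. Between subfamilies (416 pairs) it was -0.07, from -0.61 to 0.75, a value pulled below 0 because deviations from a common mean must balance. On the same chromosome but between subfamilies the median was 0.03 (154 pairs), and between chromosomes -0.12 (262 pairs). The 10 pairs of Krtap4 genes ran from 0.42 to 0.64 and the 6 pairs of Krtap19 genes from 0.34 to 0.88. All 20 pairs of a Krtap4 with a Krtap19 gene lay below 0, from -0.61 to -0.20. The points share the papilloma and its array, genes of a subfamily are near copies, and probes that bind several of them would give the same picture, which was not tested.

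**Figure D5:**
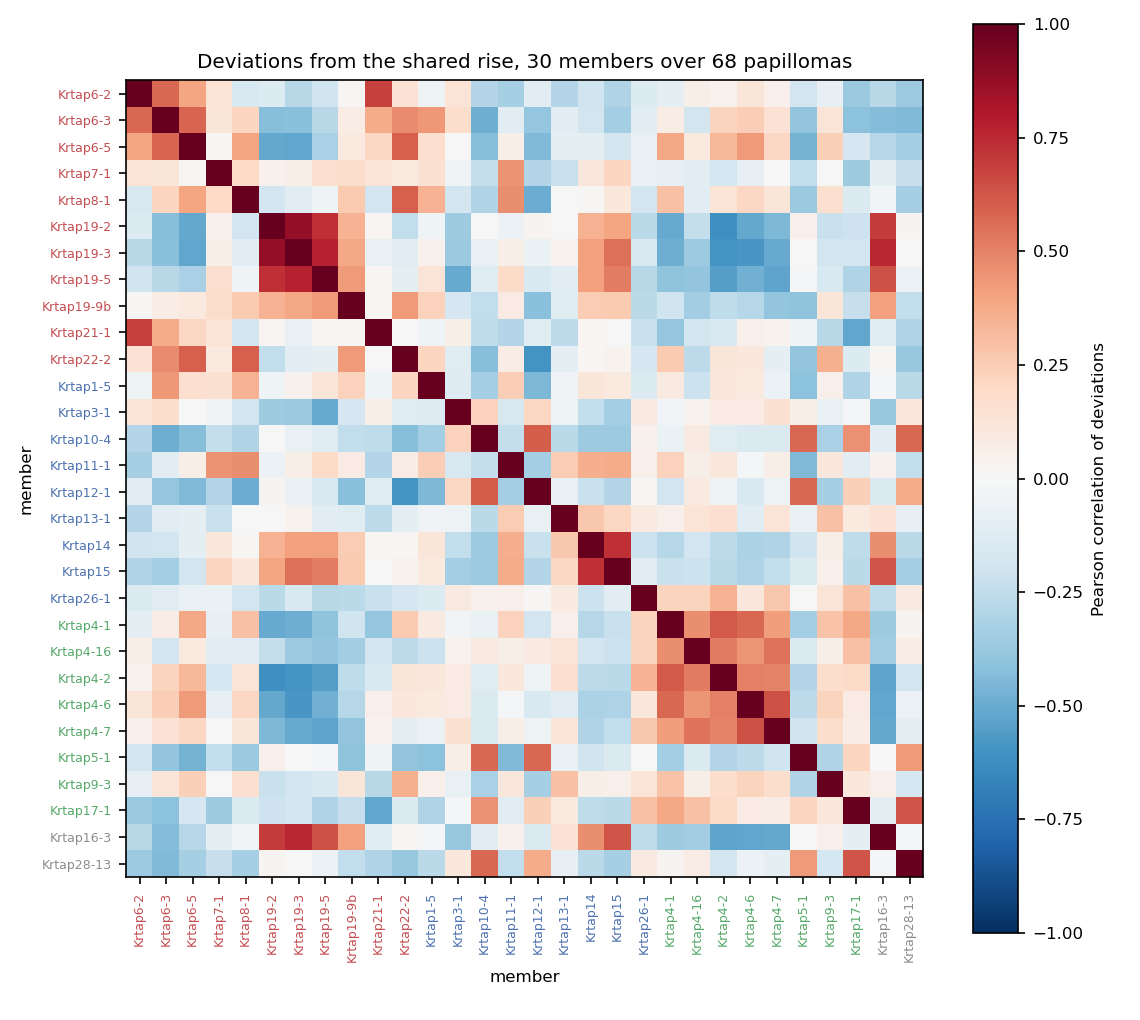
Matrix of Pearson correlations over 68 papillomas between the deviations of 30 tested members from the shared rise (red above 0, blue below 0), with members in the order of protein group and subfamily. The Krtap4 and Krtap19 blocks are red along the diagonal and blue against each other.

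Krtap19-2 and Krtap19-3 had the highest correlation of deviations (0.88), followed by Krtap19-3 and Krtap19-5 (0.77). Pairs across subfamilies stood out on chromosome 16. Krtap16-3 went with Krtap19-3 (0.75), Krtap14 with Krtap15 (0.73), both high-sulfur, and Krtap6-2 with Krtap21-1 (0.68), both glycine-tyrosine. Krtap17-1 on chromosome 11 and Krtap28-13 on chromosome 1 had 0.63.

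Some deviations were shared by the papillomas of a mouse. Krtap21-1 had the highest intraclass correlation of deviations (0.65), followed by Krtap19-3 (0.49). It was lower in the other tested members, at 0.04 in Krtap13-1 and Krtap15 and down to -0.12 in Krtap28-13 and -0.13 in Krtap26-1. These values were not tested. Krtap19-2 lay 1.53 and 1.03 log2 units above its curve in the papillomas of mouse 7 and 2.08 units below it in mouse 19, where the mean of all members was high. Krtap8-1 lay 2.09 and 2.05 units above its curve in mouse 20. There it reached 9.04 and 8.40 while 13 and 9 members were raised. Krtap6-3 lay 1.56 and 2.62 units above its curve in mouse 14, at 6.39 and 6.65. Its second probeset, which hardly moved in any mouse, gave no check of this.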

How the data were processed

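RNA of 68 papillomas had been hybridised to Affymetrix expression arrays of the mouse genome. The deposited values are log2 signals that the authors made by RMA (background correction, quantile normalization across arrays, summary of probes), per the submitters' processing notes, with no version given. Quantile normalization makes array distributions equal, so that levels are relative, and the number of arrays limits the precision. Genes were named by the array annotation. Of 45101 probesets 34945 had 1 symbol, and 21581 of these (12605 genes) lay above their own array's median (control probesets left out) in at least 11 arrays and were tested.

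Papillomas of a mouse were averaged. Comparisons were fitted in R 4.3.3 (limma 3.58.1), and p-values were adjusted by Benjamini-Hochberg over all tested probesets, with a threshold of 0.05. Single members were compared by exact permutation of class over mice (two-sided, 18564 splits). Tests were checked on simulated data. Correlations are descriptions. Named were the member whose probeset had the highest mean signal in each subfamily (a rule for choosing, not a comparison of RNA amounts), the extremes of SD, intraclass correlation and order, the 5 tested members of smallest p, and the 10 genes most alike. Members singled out by their deviations, and hair matrix and stem cell genes given with a correlation, were chosen after their values were seen. Members, subfamily groups and marker lists were chosen with earlier results of these data known. Alternatives covered filters, samples, covariates, centring and probesets.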

Additional observations from a re-analysis of the deposited data

Results flagged for a closer look

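In the 6 resistant mice, Krtap5-1 and Krtap12-1 each had 1 mouse far above the others, and this was mouse 7 in both. For Krtap5-1 mouse 7 lay at 5.94 and the next mouse at 5.61, and the gap was 0.823 of the range of the group. For Krtap12-1 mouse 7 lay at 7.17 and the next at 6.93, a gap of 0.635 of the range. Chance alone marks about 1 group in 20 in this way, and 38 members were looked at. Both papillomas of mouse 7 were among those with many members raised (32 and 18).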

How the results depend on the processing

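No paired analysis was possible because the labels number papillomas within a mouse, and these numbers do not link mice of different groups. In all 29 alternatives for class and the 7 each for coat, sex and days alive, 0 members were called. The median class difference of the members ran from -0.59 to 0.26, and leaving out 1 mouse at a time gave -0.59 to 0.12. It was above 0 without mouse 35, without the mice of doubtful sex label (0.14), without mice that have 1 papilloma (0.26, an alternative chosen after seeing the data) and over the 7 members of the stricter filter (0.01). The median stayed below 0 for coat and sex and above 0 for days alive. For the intraclass correlation all members tested were called under each alternative, 7 under the stricter filter because only 7 were tested. Between 25 and 38 members passed the other floors. The glycine-tyrosine genes, 13 of the 38 members, numbered 5 to 7 among the 13 raised most often under all counts of a rise. With a rise over the array median, 5 of these were glycine-tyrosine and 7 high-sulfur. The median spread was 1.27 as SD over mice, 1.74 as interquartile range and 1.40 as SD over papillomas. The exact permutation also put 0 members below 0.05.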

Other observations

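The 6 probesets with several symbols moved with the members where they moved at all. The probeset of Krtap2-4 and the gene models Gm11937 and Gm11938 had mouse means of 3.91 to 8.47 (r = 0.98 with the members' mean, raised in 25 papillomas), and that of Krtap6-1 and 2 others 3.58 to 9.84 (0.97, raised in 36). The probeset of Krtap4-13 with 2 others had 2.97 to 6.38 (0.95), and that of Krtap9-1 with 3 others 4.84 to 8.72 (0.97). Krtap3-2 and Krtap3-3 shared 2 probesets. One ran from 3.65 to 7.63 (0.97, raised in 23), and the other from 3.02 to 3.70 (0.46, raised in 0).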
